A study of Homo sapiens with 30 samples.

Results

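The 9 genes described here encode the proteins that admit pyruvate to mitochondria and set the activity of the pyruvate dehydrogenase (PDH) complex. They were taken by name: the carrier subunits MPC1 and MPC2, the PDH kinases PDK1, PDK2, PDK3 and PDK4, the PDH phosphatases PDP1 and PDP2, and the phosphatase regulatory subunit PDPR. All 9 were among the 58051 genes listed in the table of the knockout series and among the 60675 genes listed in the table of the overexpression series. The RNA came from established human lines of acute myeloid leukemia (AML), in 30 libraries that form 10 groups with n = 3 each. FLT3-ITD, a tandem duplication within the receptor gene, is carried by MV4-11 and Molm-14. THP-1 is a monocytic AML line with normal FLT3, without the duplication. In the knockout series, cells of each line carried a CRISPR/Cas9 lentiviral vector with a guide against MPC1 (KO) or the empty vector (EV). For overexpression (OE), a GFP-marked lentivirus encoding the miR-1 hairpin from MIR1-2 host sequence, driven by the EF1a promoter, was compared with its EV in MV4-11 and Molm-14. All cells thus carried a lentiviral vector, and the knockout vector used 1 guide. The labels do not say whether the libraries of a group came from separate infections, clones or cultures. The edgeR p-values thus measure the spread between libraries, which may be technical and was pooled over all groups of a series.

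Pyruvate made by glycolysis crosses the inner mitochondrial membrane through a carrier built from MPC1 and MPC2, and each subunit is unstable without the other. Inside, the PDH complex converts pyruvate to acetyl-CoA for the TCA cycle. The PDKs phosphorylate the complex and switch it off, while the PDPs remove the phosphate and switch it on, so the balance between kinase and phosphatase isoforms sets how much pyruvate is oxidized. Isoform use differs between tissues, PDK1 is a known target of hypoxia signaling, and PDK4 is known to respond to fasting, fatty acids and PPAR receptors.

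Libraries of the knockout series held 5339360 to 9106478 counts and those of the overexpression series 15543301 to 20939985. Mitochondrially encoded genes took 0.14% to 0.452% and 2.72% to 4.34% of these counts. Levels are given as counts-per-million (CPM) on library sizes scaled by TMM, which allows a gene to be compared between groups of 1 table, and as CPM per kilobase of exon where genes are compared with each other. No level was compared between the tables. A gene was called where the edgeR quasi-likelihood test gave a false discovery rate (FDR) under 5% over all tested genes of its table. All 9 myeloid markers examined (PTPRC, CD33, SPI1, CSF1R, LYZ, MPO, CEBPA, ITGAM and FLT3) had counts in every group, at a sum of 1280 to 9230 CPM. Over all libraries the summed markers of other cell types reached at most 0.469 CPM for T cells, 4.26 CPM for B cells, 0.266 CPM for erythroid cells, 10.8 CPM for megakaryocytes and platelets (PF4 and PPBP at 0 in every group), 0.923 CPM for fibroblasts and 35.8 CPM for epithelial cells. The epithelial sum was highest in Molm-14, in EV and KO alike.

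The site sequences of miR-1 are shown first, because the overexpression series asks whether the RNA of these genes responds to it. In the RefSeq sequence of mature hsa-miR-1-3p, capitals mark the seed, bases 2 to 8. The same mature sequence is encoded at MIR1-2 (chr18:21829015-21829036, minus strand) and MIR1-1 (chr20:62554351-62554372, plus strand), both on GRCh38.
hsa-miR-1-3p: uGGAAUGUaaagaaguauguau
Matches were searched on the transcript strand in the 3′ UTR of the canonical GENCODE transcript, as ACATTCCA (8mer), ACATTCC without the final A (7mer-m8) and CATTCCA without the first A (7mer-A1). PDK1 held 1 7mer-m8 match and PDP2 held 1 7mer-A1 match, shown in capitals with their flanks, and the other 7 genes held none.
PDK1, chr2:172605008-172605028, plus strand: aggcttaACATTCCtgaggct
PDP2, chr16:66886609-66886629, plus strand: tgagtccCATTCCAgaaactt
The PDK1 match began at base 9046 of a 3′ UTR of 12700 bases, and the PDP2 match at base 742 of 5227 bases. Among 19571 canonical 3′ UTRs, whose median length was 1064 bases, 7.8% held a 7mer-m8 match, 10.7% a 7mer-A1 match and 19.9% any of the 3 kinds. These matches describe letters and were not tested as sites.

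MPC1 (ENSG00000060762, protein coding, chr6:166364919-166383013, minus strand, GRCh38) was the targeted gene and the only 1 of the 9 that was called in every line after its deletion. In MV4-11 it was counted at 56.4, 58.3 and 53.7 CPM in the EV libraries and at 26.0, 24.8 and 23.5 CPM in the KO libraries. In Molm-14 the EV libraries stood at 80.1, 79.0 and 72.9 CPM and the KO libraries at 33.2, 41.0 and 38.1 CPM. In THP-1 they stood at 100, 100.3 and 90.6 CPM against 58.9, 53.2 and 50.3 CPM. The groups did not overlap in any line, and the KO libraries of THP-1 reached the level of the EV libraries of MV4-11. MPC1 fell by 1.18 on the log2 scale in MV4-11 (SE 0.097, edgeR FDR 1.33e-08), by 1.04 in Molm-14 (SE 0.093, edgeR FDR 3.41e-08) and by 0.84 in THP-1 (SE 0.091, edgeR FDR 6.32e-06). The fall did not pass the test of a difference among the 3 lines (edgeR FDR 0.388), where 1.61% of all tested genes were called. In a bulk library, fewer cells with MPC1 RNA and less MPC1 RNA per cell cannot be told apart, and a gene count does not show whether the remaining transcripts were edited.

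Among all tested genes, 5.41% were called in MV4-11 KO (3.17% higher and 2.24% lower), 2.4% in Molm-14 KO and 0.0897% in THP-1 KO. Of the 9 genes, 2 were called in MV4-11 (MPC1 lower, MPC2 higher) and 1 in each of Molm-14 and THP-1 (MPC1). On the mean over the 3 lines, MPC1 was the only 1 of the 9 called, beside 3.37% of all tested genes.

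**Figure D1:**
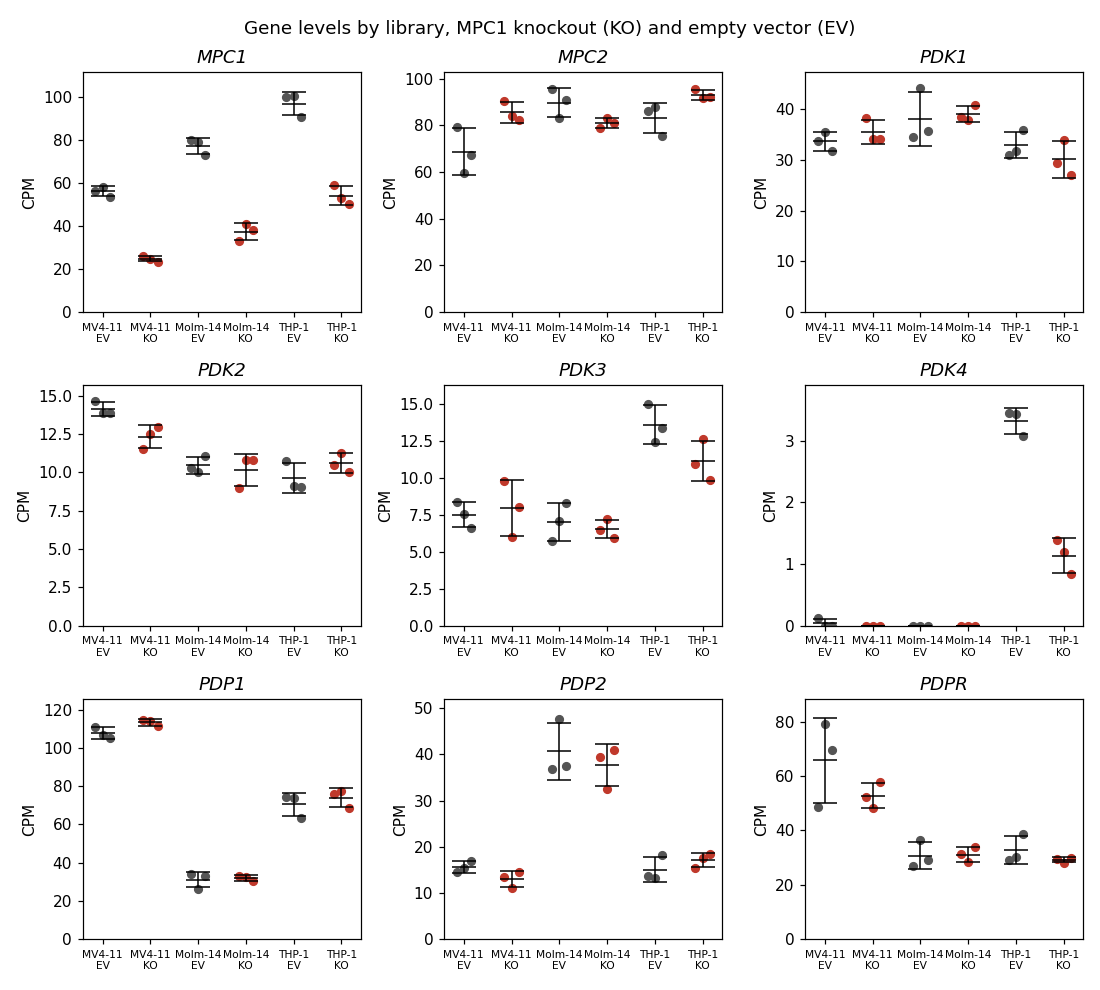
Level of each of the 9 genes in the 18 libraries of the knockout series, in CPM on linear axes from 0, with EV in gray, KO in red, and black bars for the mean and SD of n = 3 libraries. MPC1 is lower in KO than in EV in each line, PDK4 has counts above 1 per library in THP-1 alone, and PDP1 and PDP2 separate MV4-11 from Molm-14.

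MPC2 (ENSG00000143158, chr1:167916675-167937072, minus strand) encodes the partner subunit. Its level in MV4-11 was 79.3, 59.5 and 67.4 CPM in EV and 90.5, 83.8 and 82.2 CPM in KO, and the groups did not overlap, as for 24.1% of all tested genes in this line. MPC2 rose by 0.31 on the log2 scale in MV4-11 KO (SE 0.093, edgeR FDR 0.0475), a call close to the threshold. It was kept in 3 of 11 alternative analyses, in which the FDR ran from 0.00548 to 0.248, and was lost when any 1 library other than EV replicate 1 was left out. The mitochondrially encoded share of counts was 0.211%, 0.452% and 0.392% in the MV4-11 EV libraries and 0.14% to 0.202% in KO. The lowest MPC2 level thus stood in the EV library with the highest share, and the part of this in the result was not tested.

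In the other lines MPC2 did not pass the test. In Molm-14 it stood at 95.5, 82.9 and 90.9 CPM in EV and 78.8, 83.2 and 80.9 CPM in KO (log2 fold change −0.15, 95% CI −0.34 to 0.04, edgeR FDR 0.658). In THP-1 it stood at 86.1, 87.8 and 75.6 CPM in EV and 95.6, 91.8 and 92.0 CPM in KO (log2 fold change 0.16, 95% CI −0.03 to 0.35, edgeR FDR 0.678). The signs differed between lines, with an edgeR p of 0.0058 for a difference among the 3 lines that did not pass after adjustment (FDR 0.152). Exons of MPC2 share 575 of 2638 bases with DCAF6 on the opposite strand, which was counted at 82.3 ± 5.56 CPM in MV4-11 EV and 89.1 ± 6.46 CPM in MV4-11 KO (SD, n = 3). The strand setting of the counting is not given, and reads of the pair could have been mixed. The same limit holds for 3 other genes that share exon bases with a gene on the opposite strand. These are PDK2 (2113 of 5471 bases, with SAMD14), PDPR (2161 of 9679, with ENSG00000247228) and PDK1 (445 of 14845, with PDK1-AS1).

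Because the subunits work as a pair, their ratio within each library was also compared, which removes the library size. The log2 ratio of MPC1 to MPC2 counts was −0.49, −0.03 and −0.33 in the MV4-11 EV libraries and −1.80, −1.76 and −1.81 in KO. In Molm-14 it was −0.25, −0.07 and −0.32 in EV against −1.25, −1.02 and −1.09 in KO. In THP-1 it was 0.22, 0.19 and 0.26 in EV against −0.70, −0.79 and −0.87 in KO. The groups did not overlap in any line, and THP-1 EV was the single group of the series in which MPC1 counts exceeded MPC2 counts in every library. The KO minus EV difference in the mean ratio was −1.50 in MV4-11, −0.90 in Molm-14 and −1.01 in THP-1 (two-sided exact permutation p = 0.1 in each, the smallest that 3 against 3 libraries allow). Per kilobase of exon, MPC1 stood above MPC2 in all 3 EV groups, for example at 36.4 ± 1.51 against 26.1 ± 3.77 CPM per kilobase in MV4-11 EV (SD, n = 3). In MV4-11 KO the order was turned, at a mean of 16.1 against 32.4 CPM per kilobase, and in Molm-14 KO also, at 24.3 against 30.7. In THP-1 KO the means were 35.1 and 35.3. By the length of the canonical transcript the order was turned in MV4-11 KO (27.4 against 38.5). It was kept in Molm-14 KO (41.4 against 36.4) and THP-1 KO (59.9 against 41.9).

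**Figure D2:**
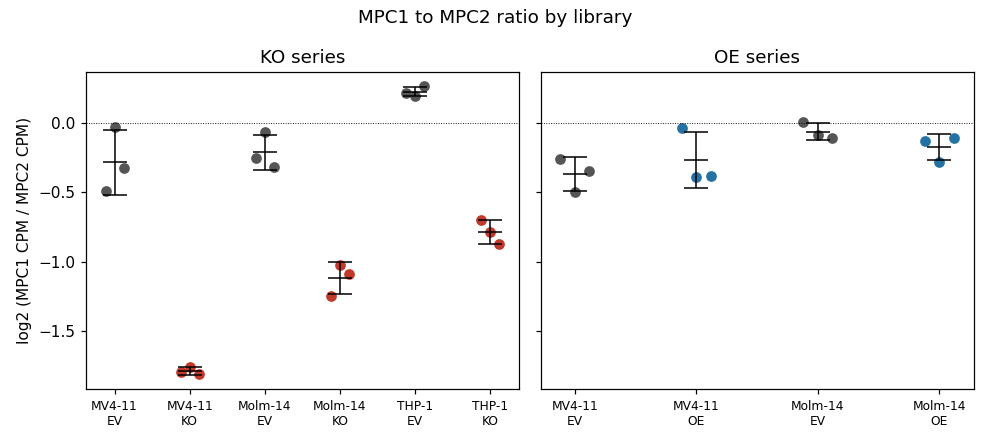
Log2 ratio of MPC1 to MPC2 CPM in each library (points), with the mean and SD of n = 3 libraries (black bars), for the knockout series (left) and the overexpression series (right), with EV in gray, KO in red and OE in blue. Each KO group lies below its EV group without overlap, whereas MV4-11 OE and EV overlap.

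The kinases were the next group. PDK1 (ENSG00000152256, chr2:172555373-172608669, plus strand) had the most counts of the 4 in every group and did not pass the test in any KO comparison. Its libraries ranged from 31.8 to 35.5 CPM in MV4-11 EV and from 34.1 to 38.3 CPM in KO, with overlap (log2 fold change 0.07, 95% CI −0.15 to 0.30, edgeR FDR 0.739). The values in Molm-14 (0.02, 95% CI −0.20 to 0.25) and THP-1 (−0.12, 95% CI −0.36 to 0.11) also had intervals across 0. PDK2 (ENSG00000005882, chr17:50094737-50112152, plus strand) stood at 14.6, 13.9 and 13.9 CPM in MV4-11 EV and 11.5, 12.5 and 12.95 CPM in KO. These groups did not overlap, but the difference of −0.20 (95% CI −0.46 to 0.07) did not pass the test (edgeR FDR 0.395). In the other lines its EV and KO libraries overlapped, between 8.98 and 11.1 CPM in Molm-14 and between 9.06 and 11.3 CPM in THP-1. PDK3 (ENSG00000067992, chrX:24465244-24550466, plus strand) was at 15.03, 12.4 and 13.4 CPM in THP-1 EV and 11.0, 12.6 and 9.89 CPM in KO, with overlap (log2 fold change −0.29, 95% CI −0.64 to 0.06, edgeR FDR 0.683). In MV4-11 and Molm-14 its libraries lay between 5.72 and 9.81 CPM, with overlap in both.

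PDK4 (ENSG00000004799, chr7:95583499-95596516, minus strand) differed from the other kinases in being counted almost only in THP-1. The THP-1 EV libraries held 26, 23 and 17 counts of PDK4 (3.46, 3.44 and 3.08 CPM) and the KO libraries 9, 8 and 5 counts (1.39, 1.19 and 0.838 CPM). Every KO library was below every EV library, as for 13.6% of all tested genes in THP-1. The log2 fold change was −1.53 (SE 0.355, 95% CI −2.27 to −0.79). Over all genes it did not pass (edgeR FDR 0.181), and in 11 alternative analyses it was not called either, with an FDR from 0.119 to 0.624. The other 12 libraries of the series held 1 count of PDK4 in all, in MV4-11 EV replicate 1. PDK4 passed the filter through the THP-1 EV libraries, where it is high, so its difference in THP-1 is a description only. No fold is given in the other lines.

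The relative use of the kinase isoforms depended on the length by which counts were divided. Dividing by the union of exons, PDK1 made up 42.9% ± 1.6 and PDK2 48.8% ± 1.5 of the summed kinase level in MV4-11 EV (SD, n = 3). In Molm-14 EV the shares were 52.5% ± 4.2 and 39.3% ± 3.6. PDK4 made up 13.3% ± 1.0 of the kinase level in THP-1 EV and 5.14% ± 1.1 in THP-1 KO. With the canonical length these were 6.64% and 2.62%, and without division by length 5.6% and 2.14%. With the length of the canonical transcript, PDK1 fell to between 12.7% and 27.6% of the total in the 5 EV groups, and PDK3, whose canonical transcript is short beside its exon union, was the largest share in each. An order of isoforms is therefore not given.

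The phosphatases and their regulator did not pass the test in any KO comparison. PDP1 (ENSG00000164951, chr8:93857807-93926068, plus strand) stood at 111.1, 106.9 and 105.2 CPM in MV4-11 EV and 114.8, 114.3 and 111.5 CPM in KO (log2 fold change 0.08, 95% CI −0.10 to 0.25, edgeR FDR 0.656). The groups did not overlap, and the interval held 0. PDP2 (ENSG00000172840, chr16:66878589-66895754, plus strand) stood at 14.5, 15.4 and 16.96 CPM in MV4-11 EV and 13.4, 11.0 and 14.5 CPM in KO (log2 fold change −0.26, 95% CI −0.58 to 0.05, edgeR FDR 0.317). Both phosphatases overlapped between KO and EV in the other lines. PDP1 lay between 26.5 and 34.0 CPM in Molm-14 and between 63.4 and 77.7 CPM in THP-1, and PDP2 between 32.6 and 47.7 CPM in Molm-14 and between 13.3 and 18.4 CPM in THP-1. In total 5 of the 9 genes separated the MV4-11 groups without overlap, where 24.1% of all tested genes did. In Molm-14 it was 1 of 9, beside 16.4% of all tested genes. In THP-1 it was 3 of 9, beside 13.6%, with PDK4 among the 3 although it passed the filter through the EV group.

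PDPR (ENSG00000090857, chr16:70114332-70162537, plus strand), which lowers the activity of the PDP1 phosphatase, stood at 48.6, 79.2 and 69.5 CPM in MV4-11 EV and 52.2, 48.4 and 57.7 CPM in KO. EV replicate 1 lay with the KO libraries. The log2 fold change of −0.31 (95% CI −0.60 to −0.02) did not pass the test (edgeR FDR 0.185), and without EV replicate 1 it was −0.49 and called (edgeR FDR 0.0114). That library also had the lowest mitochondrially encoded share of the 3 EV libraries, and the part of this in the result was not tested. PDPR has a near-identical copy, PDPR2P, counted at 5.45 ± 1.37 CPM in MV4-11 EV (SD, n = 3), and reads shared between them may have been split or lost, so its values are uncertain. In Molm-14 and THP-1 the PDPR libraries lay between 26.7 and 38.6 CPM, with log2 fold changes of 0.0022 (95% CI −0.32 to 0.32) and −0.15 (95% CI −0.48 to 0.17).

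**Figure D3:**
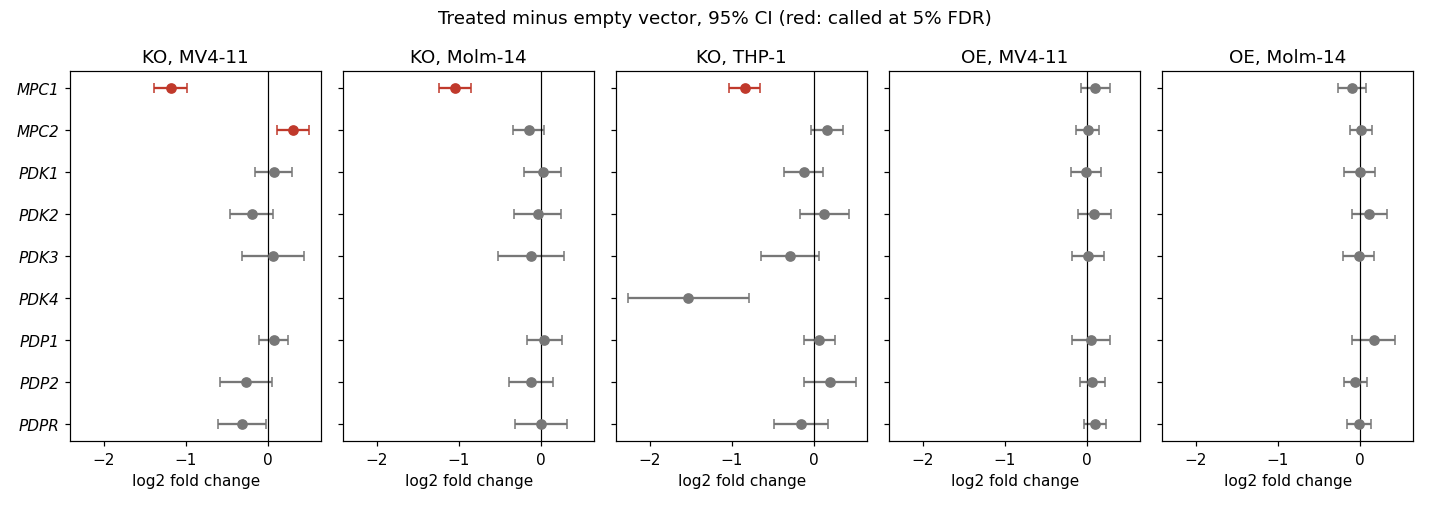
Log2 fold change of each gene against EV with its 95% confidence interval, in the 3 KO comparisons and the 2 OE comparisons, where red marks genes called at 5% FDR. MPC1 is called in the 3 KO panels and MPC2 in MV4-11 KO. The PDK4 interval in THP-1 lies below 0 without a call, for a gene that passed the filter through THP-1 EV. PDK4 is drawn in no other panel for lack of counts.

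The genes around these regulators were described from lists written with general knowledge and with earlier results of these data known. Calls in these lists are a description and stand beside 5.41%, 2.4% and 0.0897% of all tested genes in MV4-11, Molm-14 and THP-1 KO. None of the 5 genes of the PDH complex (PDHA1, PDHB, DLAT, DLD and PDHX) was called in any KO or OE comparison, with a median log2 fold change after deletion of 0.07 in MV4-11, 0.04 in Molm-14 and 0.02 in THP-1. The median over all tested genes was 0.02, 0 and 0.0034. Of the 8 tested genes that make pyruvate or handle lactate, 1 fell in MV4-11 KO (list median 0.05). This was LDHA, which interconverts pyruvate and lactate, at a mean of 404.7 CPM in KO and 518.2 CPM in EV (log2 fold change −0.36, SE 0.089, edgeR FDR 0.0193). It lost its call in 4 of 11 alternatives.

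Among 13 tested genes of other routes for pyruvate and carbon entry, 1 rose and 2 fell in MV4-11 KO (list median −0.02). Of all tested genes, 5.41% were called there. ME3, a mitochondrial malic enzyme that makes pyruvate, rose by 0.58 on the log2 scale (SE 0.13, edgeR FDR 0.0117). GOT2, the mitochondrial aspartate aminotransferase, fell by 0.34 (SE 0.092, edgeR FDR 0.0313). ME1, the cytosolic malic enzyme, was called lower (edgeR FDR 0.00736) from few counts, with 12 counts over the EV libraries and 0 over the KO libraries. Against a floor of 3 counts over the KO group it was at least 4.08-fold lower. No gene of this list was called in Molm-14 or THP-1.

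For genes that respond to PPAR receptors and fatty acids, 3 of 9 tested were called in MV4-11, 1 in Molm-14 and 1 in THP-1. Of all tested genes, 5.41%, 2.4% and 0.0897% were called in these lines, and the list medians were 0.0047, −0.03 and −0.02. CPT1A, which admits long-chain fatty acids to mitochondria, fell by 0.46 in MV4-11 (SE 0.082, edgeR FDR 0.00171) and by 0.49 in THP-1 (SE 0.085, edgeR FDR 0.00947). PLIN2, a lipid droplet protein, rose by 0.64 in MV4-11 (SE 0.106, edgeR FDR 0.000697). In Molm-14 the fatty acid receptor CD36 rose by 0.77 (SE 0.119, edgeR FDR 0.000144). Among 14 tested transcription factors known to act on PDK genes, PPARG in Molm-14 was the only call in the tests of single lines, and the list medians were −0.09, −0.03 and −0.07 in MV4-11, Molm-14 and THP-1. In Molm-14 PPARG rose from a mean of 0.532 CPM in EV to 2.56 CPM in KO, by 2.22 on the log2 scale (SE 0.382, edgeR FDR 0.000579). With 1 library left out the rise ran from 1.92 to 2.86. The EV mean lay close to the level of 3 counts in the Molm-14 EV libraries (0.338 to 0.504 CPM). Of 16 tested hypoxia-inducible genes, BNIP3L (0.35, SE 0.091, edgeR FDR 0.0257) and SLC2A1 (0.32, SE 0.097, edgeR FDR 0.0491) rose in MV4-11, and none was called in Molm-14 or THP-1 (list medians 0.13, 0.08 and 0.04). BNIP3L and SLC2A1 kept their calls in 8 and 4 of 11 alternatives, GOT2 in 5, ME3 in 9 and CPT1A in THP-1 in 7. On the mean over the 3 lines, where 3.37% of all tested genes were called, 3 genes of these lists were called that no single line called. PCK2, the mitochondrial PEP carboxykinase, rose by 0.41 (SE 0.093, edgeR FDR 0.0127) and the stress-induced DDIT4 by 0.37 (SE 0.085, edgeR FDR 0.0132), both called in all 22 alternatives. The transcription factor FOXO3 fell by 0.22 (SE 0.064, edgeR FDR 0.0496), a call kept in 8 of 22.

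The overexpression series asked whether the same 9 genes move with the miR-1 vector. Whether miR-1 itself was higher in these OE libraries than in EV was not tested. A lack of calls thus describes the vector and does not show that a gene fails to respond to miR-1. PDK4 held at most 2 counts in any of the 12 libraries and was not tested. None of the other 8 was called in MV4-11 OE, where 0.177% of all tested genes were, or in Molm-14 OE, where 0.0057% were, and none had an unadjusted edgeR p under 0.05. DESeq2 called none of the 8 either. The share called in Molm-14 OE depended on the fit. With the 6 libraries of that line alone, 195 genes were called, and none of the 8 was among them. The mean over both lines called 0 of 8 (0.0684% of all tested genes) and so did the test of a difference between the lines (0.0456% of all tested genes).

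The miR-1 matches in PDK1 and PDP2 were not accompanied by a call, in libraries whose miR-1 level was not tested. PDK1 stood at 46.4, 44.6 and 54.5 CPM in MV4-11 EV and 55.7, 43.4 and 45.4 CPM in OE, with overlap (log2 fold change −0.01, 95% CI −0.19 to 0.18). In Molm-14 its groups also overlapped, and the difference had a 95% CI from −0.19 to 0.19. PDP2 stood at 35.3, 32.2 and 37.9 CPM in MV4-11 EV and 40.3, 36.2 and 34.2 CPM in OE (log2 fold change 0.07, 95% CI −0.08 to 0.22). In Molm-14 OE it was at 83.3, 81.7 and 80.8 CPM, below each EV library (83.8, 87.0 and 84.1 CPM), with a difference of −0.05 (95% CI −0.19 to 0.08, edgeR FDR 1).

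MPC1 was at 30.8, 26.1 and 32.1 CPM in MV4-11 EV and at 35.3, 29.5 and 30.8 CPM in OE, with overlap (log2 fold change 0.11, 95% CI −0.07 to 0.29). In Molm-14 it was at 43.8, 42.7 and 43.1 CPM in EV and 41.0, 37.8 and 42.6 CPM in OE, without overlap, as for 14.9% of all tested genes (log2 fold change −0.10, 95% CI −0.27 to 0.08, edgeR FDR 1). MPC2 lay between 36.2 and 40.7 CPM in MV4-11 and between 43.7 and 46.6 CPM in Molm-14, with overlap in both.

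PDK2 in MV4-11 was at 18.2, 18.5 and 16.8 CPM in EV and 18.6, 19.2 and 19.3 CPM in OE, the single gene without overlap in this line, where 9.17% of all tested genes had none (log2 fold change 0.09, 95% CI −0.11 to 0.29, edgeR FDR 1). PDP1 in Molm-14 was at 12.8, 16.5 and 15.9 CPM in EV and 17.1, 16.6 and 17.2 CPM in OE (log2 fold change 0.17, 95% CI −0.10 to 0.43, edgeR FDR 1). With MPC1 and PDP2 it made 3 of 8 genes without overlap in Molm-14, where 14.9% of all tested genes had none. PDPR had the smallest p of the 8 in MV4-11 OE, with a log2 fold change of 0.10 (95% CI −0.04 to 0.24, edgeR FDR 0.971), and PDK3 overlapped in both lines. None of the 7 lists of surrounding genes held a call in either OE comparison, with list medians between −0.05 and 0.06. The intervals of the 8 genes lay between −0.27 and 0.43 in both lines, so larger changes fell outside them. The log2 ratio of MPC1 to MPC2 differed by 0.10 in MV4-11 (two-sided exact permutation p = 0.7) and by −0.11 in Molm-14 (p = 0.1, the smallest that the exact permutation test allows).

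**Figure D4:**
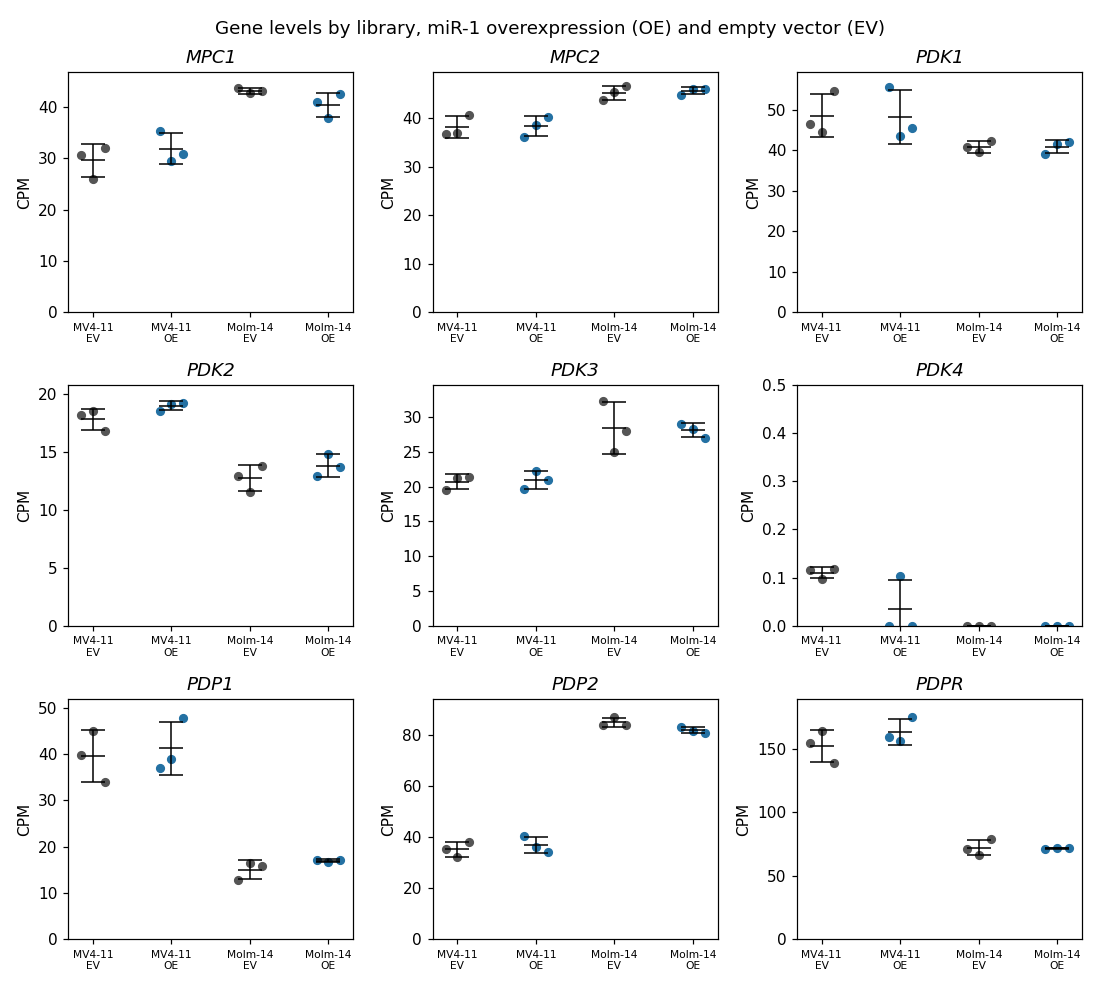
Level of each of the 9 genes in the 12 libraries of the overexpression series, in CPM on linear axes from 0, with EV in gray, OE in blue, and black bars for the mean and SD of n = 3 libraries. OE and EV lie close together for each gene, while MV4-11 and Molm-14 differ most for PDP1, PDP2 and PDPR.

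The lines themselves were compared over the EV groups, and the phosphatases PDP1 and PDP2 differed more between MV4-11 and Molm-14 than MPC1 did between KO and EV in any line. Lines differed at most genes, with 61.7% of all tested genes called between MV4-11 and Molm-14 in the knockout series and 64.8% in the overexpression series. The counts of 6 of 8 and 8 of 8 genes called are read against these shares. PDK4, at or near 0 counts in both lines, is left out of both counts. The phosphatases went in opposite directions. PDP1 was at 107.7 ± 3.04 CPM in MV4-11, 70.6 ± 6.17 CPM in THP-1 and 31.1 ± 4.09 CPM in Molm-14 (SD, n = 3), and neighbours in this order differed. The log2 difference was 0.61 between MV4-11 and THP-1 (SE 0.090, edgeR FDR 1.15e-06) and −1.19 between Molm-14 and THP-1 (SE 0.097, edgeR FDR 1.86e-11).

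PDP2 was at 40.7 ± 6.11 CPM in Molm-14, 15.6 ± 1.25 CPM in MV4-11 and 15.1 ± 2.81 CPM in THP-1 (SD, n = 3). Molm-14 stood above both other lines (1.45 above THP-1, SE 0.143, edgeR FDR 7.94e-10), and the 2 lower lines did not pass the test of a difference (0.06, 95% CI −0.26 to 0.38). Between MV4-11 and Molm-14 the log2 difference was 1.80 for PDP1 (SE 0.095, edgeR FDR 2.81e-15) and −1.39 for PDP2 (SE 0.139, edgeR FDR 1.57e-09). The separate libraries of the overexpression series gave 1.40 for PDP1 (SE 0.119, edgeR FDR 8.47e-09) and −1.28 for PDP2 (SE 0.068, edgeR FDR 2.01e-12). PDPR, the partner of PDP1, was 1.08 higher in MV4-11 than in Molm-14 in both tables (SE 0.146, edgeR FDR 6.58e-07, and SE 0.068, edgeR FDR 2.95e-11). It was 1.01 higher in MV4-11 than in THP-1 (SE 0.148, edgeR FDR 1.68e-06) and was not called between Molm-14 and THP-1 (−0.07, 95% CI −0.39 to 0.25).

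The carrier subunits were lower in MV4-11. MPC1 rose in the order MV4-11, Molm-14 and THP-1, at 56.1 ± 2.33, 77.3 ± 3.85 and 97.0 ± 5.52 CPM (SD, n = 3), and neighbours differed by −0.46 (SE 0.090, edgeR FDR 7.02e-05) and −0.33 (SE 0.088, edgeR FDR 0.00175). MPC2 was at 68.7 ± 9.95 CPM in MV4-11, 83.1 ± 6.60 CPM in THP-1 and 89.8 ± 6.36 CPM in Molm-14. It was called between MV4-11 and Molm-14 (−0.38, SE 0.093, edgeR FDR 0.000896), and its call between MV4-11 and THP-1 (−0.27, SE 0.094, edgeR FDR 0.0122) was lost without MV4-11 EV replicate 2 (edgeR FDR 0.118) or THP-1 EV replicate 2 (edgeR FDR 0.0592). Molm-14 and THP-1 did not pass the test of a difference in MPC2 (0.11, 95% CI −0.08 to 0.30). In the overexpression series MV4-11 was below Molm-14 by −0.55 for MPC1 (SE 0.085, edgeR FDR 1.1e-05) and −0.25 for MPC2 (SE 0.066, edgeR FDR 0.00287).

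**Figure D5:**
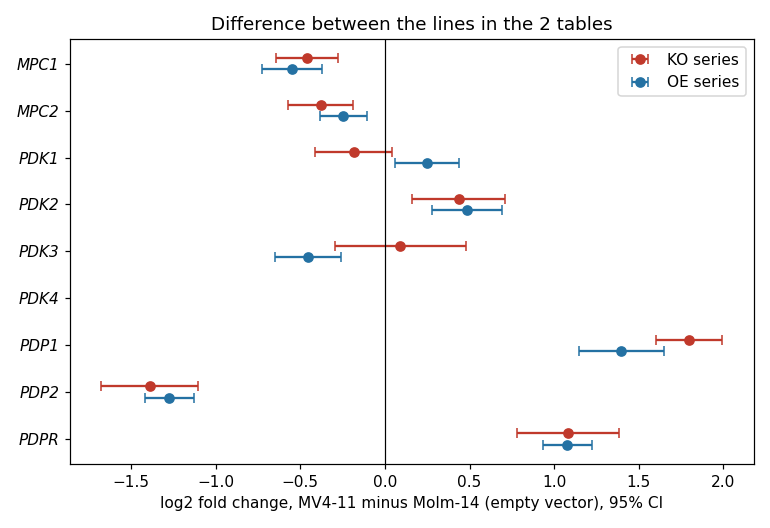
Log2 difference between MV4-11 EV and Molm-14 EV for each gene with its 95% confidence interval, from the knockout series (red) and the overexpression series (blue). PDP1 and PDPR are higher and PDP2, MPC1 and MPC2 lower in MV4-11 in both tables, whereas PDK1 and PDK3 lie on opposite sides of 0, and PDK4 is not drawn.

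Kinase levels also differed by line. PDK2 was higher in MV4-11 than in Molm-14 by 0.44 (SE 0.134, edgeR FDR 0.00612) and by 0.49 in the overexpression series (SE 0.099, edgeR FDR 0.000238). It was also 0.54 higher in MV4-11 than in THP-1 (SE 0.137, edgeR FDR 0.00107), and Molm-14 and THP-1 did not pass (0.11, 95% CI −0.19 to 0.40). PDK3 was at 13.6 ± 1.32 CPM in THP-1 and at 7.51 ± 0.864 CPM in MV4-11 and 7.04 ± 1.30 CPM in Molm-14 (SD, n = 3), with THP-1 above MV4-11 (−0.85, SE 0.176, edgeR FDR 0.000121) and above Molm-14 (−0.94, SE 0.177, edgeR FDR 3.68e-05). Between MV4-11 and Molm-14, PDK3 was not called in the knockout series (0.09, 95% CI −0.30 to 0.48) but was lower in MV4-11 in the overexpression series (−0.45, SE 0.093, edgeR FDR 0.000239). PDK1 was not called between any pair of lines in the knockout series and was 0.25 higher in MV4-11 in the overexpression series (SE 0.090, edgeR FDR 0.0208), a call lost without MV4-11 EV replicate 3 (edgeR FDR 0.131) or Molm-14 EV replicate 2 (edgeR FDR 0.0765).

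Between MV4-11 and THP-1, 6 of the 8 genes other than PDK4 were called, beside 67.5% of all tested genes, and between Molm-14 and THP-1 4 of 8, beside 69.6%. PDK4 passed the filter through THP-1, where it is high, so its test against the other lines is not used and its levels are a description. With 66 counts over the THP-1 EV libraries and 0 over the Molm-14 EV libraries, it was at least 25.0-fold higher in THP-1, against a floor of 3 counts over the group. Against the 1 count in MV4-11 EV the ratio was 75.4, with an exact 95% interval from 13.1 to 3020 that covers counting error only.

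Between MV4-11 and Molm-14 the PDH complex differed in DLAT, the acetyltransferase core, and PDHX, which binds the DLD subunit to that core. DLAT was lower in MV4-11 than in Molm-14 by −0.77 (SE 0.077, edgeR FDR 1.47e-09) and PDHX higher by 0.91 (SE 0.109, edgeR FDR 3.6e-08). In the overexpression series the values were −0.30 (SE 0.053, edgeR FDR 5.69e-05) and 1.40 (SE 0.087, edgeR FDR 2.15e-11). In total 2 of the 5 genes of the complex were called in the first table and 3 in the second, beside 61.7% and 64.8% of all tested genes. In the second PDHB was also higher in MV4-11 (0.33, SE 0.069, edgeR FDR 0.000315). Between MV4-11 and THP-1 3 of the 5 were called, beside 67.5% of all tested genes, and between Molm-14 and THP-1 4 of the 5, beside 69.6%. THP-1 EV was lower than MV4-11 EV in PDHA1 (0.43 in MV4-11 minus THP-1, SE 0.087, edgeR FDR 8.14e-05) and PDHB (0.41, SE 0.10, edgeR FDR 0.00069), the subunits that decarboxylate pyruvate. It was also lower than Molm-14 EV in both (0.38, SE 0.087, edgeR FDR 0.000361, and 0.35, SE 0.10, edgeR FDR 0.00292). The larger differences between Molm-14 and THP-1 were in DLAT, 0.86 higher in Molm-14 (SE 0.077, edgeR FDR 1.28e-10), and PDHX, lower by −1.19 (SE 0.108, edgeR FDR 1.73e-10). PDHX was also called between MV4-11 and THP-1 (−0.28, SE 0.103, edgeR FDR 0.0198), a call lost in 3 of 10 alternatives.

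For each gene the 3 others with the most similar pattern were found by Pearson's r of log2 CPM over the 18 libraries of the knockout series, among 9426 genes with a mean of at least 10 CPM. The libraries share lines, so these values mostly follow the lines and are a description. MPC1 was closest to SLC1A3 (r = 0.844), PRKCB (0.825) and OAF (0.784), which had r of 0.896, 0.921 and 0.748 with it over the 12 libraries of the overexpression series. PDP1 was closest to RNF41, ZNF274 and SLC39A9 (0.991 each, and 0.947, 0.976 and 0.971 in the other series). PDP2 was closest to TNFRSF19 (0.972), GCN1 and CAMKK2 (0.971 each), and PDPR to CELF2 (0.979), ELF1 (0.969) and CD44 (0.963), all at 0.961 or above in the other series. PDK2 was closest to ZNF576 (0.95), GLRX (0.91) and TMEM43 (0.9). For PDK1 the closest genes, EIF1AX, ATG12 and SUPT20H (0.849 to 0.88), had r between −0.639 and −0.0664 in the overexpression series. MPC2 was closest to SEC61G (0.872), CD59 (0.869) and SF3B6 (0.867), which had r of −0.382, 0.806 and 0.916 in the other series. PDK3 was closest to PALS1 (0.926), YIPF6 (0.91) and CENPE (0.907), with −0.595, 0.0155 and 0.536 there. PDK4 was closest to WDR91 (0.978), KAT2B (0.976) and FUT4 (0.974), a pattern set by THP-1 against the other lines.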

How the data were processed

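RNA was sequenced in 30 libraries made, per the labels, with a stranded total RNA kit after ribosomal RNA depletion. The authors trimmed reads with cutadapt 1.16, removed optical duplicates, aligned to GRCh38 with STAR 2.7.6a in two-pass mode and counted reads per Ensembl gene with featureCounts 1.6.3, and they deposited whole-number counts that were not normalized, in 1 table per series. Strand use in counting is not stated, and the tables list different numbers of genes, so they were fitted separately. Every column of per-sample values belonged to a library of the series.

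Counts were filtered with filterByExpr (14490 genes tested in the knockout series and 17542 in the overexpression series), scaled with TMM and fitted with edgeR 4.0.16 in R 4.3.3 (robust quasi-likelihood, a mean per group, all groups of a table in 1 model), with Benjamini-Hochberg adjustment over all tested genes. Standard errors were derived from the F statistic. Alternatives were DESeq2 1.42.0, RLE scaling, no filter beyond 1 count, a replicate block, the 6 libraries of a line alone and leaving out each library. Symbols, exon lengths and 3′ UTRs came from GENCODE 44, which held 56948 and 60419 of the listed gene IDs. The fits were also run on data simulated from their own model, for the MV4-11 treatment comparisons only. That run cannot show whether the model suits the spread of the real libraries. Replicate pairs differed by more than sampling noise (chi-square per degree of freedom from 1.55 to 17.8), and all libraries were kept. In the overexpression series this value ran from 2.15 to 3.24 in Molm-14 and from 5.56 to 17.8 in MV4-11. The main fit gave both lines 1 shared estimate of the spread. A count of 0 allows up to 3 counts, which covers counting error only. Depth per library limits precision, and genes under about 30 counts, such as PDK4, have wide intervals. The 9 genes, the 7 lists and the tests were chosen with earlier results of these data known. All 9 genes are named, and from a list the called genes, at most 4 per list and comparison by smallest FDR, except for a few that count in a list but are not reported here.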

Additional observations from a re-analysis of the deposited data

Results flagged for a closer look

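The KO effect of none of the 9 genes passed the edgeR test of a difference among the 3 lines (1 had an unadjusted p under 0.05). Of the 80 genes in the 7 lists around them, not all of which were tested, 5 had a KO effect that differed among the 3 lines. This was by the edgeR test of the difference itself, which called 1.61% of all tested genes. The 5 are named because they were called. CD36 (FDR 0.0058) and PLIN2 (FDR 0.00929) were called in all 22 alternatives, PPARG (FDR 0.00741) in 21, CPT1A (FDR 0.027) in 14 and ME1 (FDR 0.0372) in 10. This test does not say which line differs, and pairs of lines were not tested. The calls within single lines were higher CD36 and PPARG in Molm-14 and higher PLIN2 in MV4-11. CPT1A was lower in MV4-11 and THP-1, and ME1 lost its few counts in MV4-11. PPARG held only 4 counts over the MV4-11 EV libraries, so its effect in that line is near the floor.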

How the results depend on the processing

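MPC1 was called lower in all 11 alternatives in each KO line, and no alternative called any of the 8 tested genes in an OE comparison. The 2 calls in MV4-11 KO became 1 with RLE scaling, without a filter and with the 6 libraries of the line alone, each by losing MPC2 (edgeR FDR 0.0566, 0.0577 and 0.132), and ran from 1 to 3 when 1 library was left out. The test of a difference among lines called from 0 to 1 gene when 1 library was left out, the call being MPC2 without MV4-11 EV replicate 1 (edgeR FDR 0.0257). PDK1 between Molm-14 and THP-1 was called without Molm-14 EV replicate 1 (edgeR FDR 0.0358) or THP-1 EV replicate 3 (edgeR FDR 0.0414). The causes were not tested.

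The share of PDK1 among the kinases in the EV groups was 60.8%, 68.4% and 55.3% without division by length in MV4-11, Molm-14 and THP-1 of the knockout series, 56.7% in THP-1 KO, and 55.5% and 49.8% in MV4-11 and Molm-14 of the overexpression series. With the canonical length, chosen after seeing the data, it was 21.9%, 27.6%, 16.8%, 17.8%, 16.6% and 12.7% in the same order.

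Signs turned for results that were not called. Between MV4-11 and THP-1 the log2 difference of PDK1 was −0.010 with DESeq2 and −0.011 with RLE. In Molm-14 OE that of PDK1 was 0.0023 with DESeq2, 0.0021 with RLE and 0.00079 with the replicate block. When 1 library was left out, the log2 fold change in MV4-11 KO ran from −0.10 to 0.24 for PDK3. In Molm-14 KO it ran from −0.039 to 0.15 for PDK1, −0.080 to 0.046 for PDK2, −0.23 to 0.013 for PDK3, −0.065 to 0.11 for PDP1, −0.18 to 0.018 for PDP2 and −0.082 to 0.15 for PDPR. Between lines it ran from −0.025 to 0.23 for PDK3 (MV4-11 and Molm-14, knockout series), −0.0019 to 0.099 for PDK1 and −0.018 to 0.21 for PDP2 (MV4-11 and THP-1), and −0.21 to 0.064 for PDPR (Molm-14 and THP-1). In MV4-11 OE it ran from −0.022 to 0.063 for MPC2, −0.12 to 0.084 for PDK1, −0.029 to 0.063 for PDK3 and −0.059 to 0.16 for PDP1, and the MPC1 to MPC2 ratio from −0.020 to 0.16. In Molm-14 OE it ran from −0.0038 to 0.036 for MPC2, −0.024 to 0.033 for PDK1, −0.099 to 0.092 for PDK3 and −0.068 to 0.055 for PDPR.

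Counts over all genes moved more. In MV4-11 KO, 784 genes were called, 356 with the line alone and 133 to 1400 with 1 library left out. For Molm-14 KO they were 348, and 183 to 293 with 1 left out. For THP-1 KO they were 13, with 20 by DESeq2, 30 without a filter, 4 with the line alone and 3 to 10 with 1 left out. The mean KO effect called 489 (888 without a filter, 280 to 1257 with 1 left out) and the difference among lines 233 (408 without a filter, 143 to 324 with 1 left out). In MV4-11 OE 31 were called (68 by DESeq2, 123 without a filter, 9 with the line alone, 12 to 47 with 1 left out), and in Molm-14 OE 1 (5 by DESeq2, 7 without a filter, 195 with the line alone). The mean OE effect called 12 (30, 49 without a filter, 5 to 21) and the difference between lines 8 (13, 33 without a filter, 4 to 9).

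Replicate numbers were not taken to pair the samples. Deviations of same-numbered KO and EV libraries correlated from −0.143 to 0.0521 in MV4-11, −0.0813 to 0.0728 in Molm-14 and 0.0789 to 0.25 in THP-1, where 5 of 6 libraries correlated best with their own number, and from −0.315 to 0.00781 in the OE lines. The replicate block left 2, 1 and 1 members called in MV4-11, Molm-14 and THP-1 KO and 0 in each OE line, and moved the calls over all genes to 1474 in MV4-11 KO, 1084 for the mean KO effect, 15 in MV4-11 OE, 2 in Molm-14 OE, 7 for the mean OE effect and 2 for its difference between lines.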

Other observations

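The genes that supply the PDH complex with its lipoate and thiamine cofactors were not called in any KO or OE comparison (0 of 5 in each). Between MV4-11 EV and Molm-14 EV, 3 of 5 were called in the knockout series and 4 of 5 in the overexpression series, beside 61.7% and 64.8% of all tested genes. LIAS, the lipoate synthase, was 1 of the 3 (−0.35, SE 0.135, edgeR FDR 0.0269) and lost its call in 4 of 10 alternatives. LIPT1, which transfers lipoate to enzyme subunits, was lower in MV4-11 in both tables, by −1.63 on the log2 scale (SE 0.197, edgeR FDR 4.65e-08) and −1.13 (SE 0.149, edgeR FDR 1.45e-06).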
